A study of Mus musculus with 9 samples.

Results

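The type I interferon-stimulated genes described here are 30 genes chosen by symbol as known targets of interferon alpha and beta, out of 48708 genes in the count table of the series. All 30 were found in the table, and all 30 passed the filter on low counts that left 16539 genes for testing. They comprise 3 genes of the IFIT family, 6 of the OAS family, 11 other antiviral effectors, 3 RNA sensors, 2 transcription factors and 5 genes of ISG15 conjugation and ADP-ribosylation. The RNA came from small intestine of the C57BL/6 strain during acute graft-versus-host disease, an attack of donor immune cells on the tissues of the recipient. There were 3 groups of 3 libraries, each labelled postnatal week 8: wild type (WT), RIPK3-KO (RIPK3-/-, the kinase of necroptosis deleted in the whole body) and Vil (Villin-cre with RIPK3fl/fl). Villin-cre acts in the intestinal epithelium, so other cells of the Vil intestine keep the gene. Every group had the disease, and no mouse without it was used here. Whether the genotypes apply to the donor cells too is not stated. Separate animals per library are not stated either, and the design text speaks of duplicated samples, so p-values here measure only the spread between the libraries, which may be technical.

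Type I interferons bind a receptor made of IFNAR1 and IFNAR2, whose kinases activate the complex ISGF3. This complex, which contains STAT2 and IRF9, binds an interferon-stimulated response element (ISRE) upstream of target genes. Interferon gamma acts through another receptor and on gamma-activated sites (GAS), and type III interferons act on epithelium through ISGF3. Many of the genes below therefore respond to more than 1 kind of interferon. Their products bind viral RNA, block translation or virus release, sense RNA or dampen the signal.

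The upstream sequences of 7 members are shown because they hold matches to the response elements near genes whose values follow. Ifit2 is shown because it changed most and no ISRE core was found in the stretches searched before its starts. The sequences are from RefSeq on GRCm38.p6, 5′ to 3′ on the strand of the gene, with matches to the searched letters in capitals. In Ifit2 the capitals mark a GAS core, and in the others they mark ISRE cores.
Ifit1 (chr19:34640749-34640838, plus strand): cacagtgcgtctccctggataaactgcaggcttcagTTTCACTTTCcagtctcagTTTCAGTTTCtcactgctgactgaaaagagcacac
Ifit3 (chr19:34583359-34583478, plus strand): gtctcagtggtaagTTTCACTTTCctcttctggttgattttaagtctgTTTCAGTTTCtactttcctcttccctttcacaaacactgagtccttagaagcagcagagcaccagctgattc
Ifit2 (chr19:34550444-34550693, plus strand): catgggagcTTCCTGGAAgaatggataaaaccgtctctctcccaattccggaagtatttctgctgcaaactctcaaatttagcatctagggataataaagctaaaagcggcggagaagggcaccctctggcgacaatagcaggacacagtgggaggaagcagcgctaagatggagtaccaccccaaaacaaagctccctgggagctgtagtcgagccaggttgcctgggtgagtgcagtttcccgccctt
Isg15 (chr4:156200819-156200918, minus strand): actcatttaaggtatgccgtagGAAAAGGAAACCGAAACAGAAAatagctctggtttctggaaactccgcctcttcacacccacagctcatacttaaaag
Oas1a (chr5:120907526-120907585, minus strand): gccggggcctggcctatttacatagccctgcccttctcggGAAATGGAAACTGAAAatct
Oas1g (chr5:120887614-120887673, minus strand): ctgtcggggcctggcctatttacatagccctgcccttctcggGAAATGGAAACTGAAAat
Rsad2 (chr12:26456503-26456622, minus strand): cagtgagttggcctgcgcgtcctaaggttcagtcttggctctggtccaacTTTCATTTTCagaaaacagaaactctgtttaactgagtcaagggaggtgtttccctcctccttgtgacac
The ISRE core was searched as GAAA, then NN (any bases), then GAAA, and the GAS core as TTCNNNGAA, on both strands of the 250 bases before each RefSeq start. Of the 30 members, 23 were in the promoter table. Oas2, Mx1, Mx2, Rtp4, Dhx58, Usp18 and Parp9 were not matched. The ISRE core was found in 10 of the 23, or 43.5%: Bst2, Ifit1, Ifit3, Isg15, Oas1a, Oas1g, Oas3, Rsad2, Stat2 and Trim30a. The same letters were found before 3.46% of all 27025 genes, or in 2.98% of 32851 promoters, since a gene can have several. The GAS core was found in 4 of the 23, or 17.4% (Bst2, Eif2ak2, Ifit2 and Oas1a), and before 8.13% of all genes, or in 7.02% of promoters. Ifit1 and Ifit3 held 2 separate ISRE cores each, Isg15 held 3 that overlap, and Oas1a and Oas1g held 2 that overlap. For Ifit2, the window before another RefSeq start, not printed here, held neither core. A match describes these letters only, and their absence from a window says nothing of the factor.

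Markers of several tissues, the epithelium among them, differed between the groups. Ripk3 itself measured 112.7 in the WT libraries on average, in CPM (counts scaled to library size), and 3.61 and 6.45 in RIPK3-KO and Vil. The 10 epithelial markers summed to 17630 to 17900 CPM per library in WT, 17520 to 18350 in RIPK3-KO and 18080 to 18800 in Vil. Of them, 3 were higher and 6 lower in RIPK3-KO, and 4 higher and 3 lower in Vil. Their sums hide changes in both directions, as in RIPK3-KO Fabp2 rose 2.23-fold and Krt18 fell 2.27-fold. The 12 leukocyte markers summed to 361 to 365, 321 to 349 and 188 to 199 CPM. Of 11 tested, 1 was higher and 4 were lower in RIPK3-KO, 1 higher and 8 lower in Vil. Lyz2 alone made up most of this sum (means: WT 223.4, RIPK3-KO 231.9, Vil 102 CPM) and most of its fall in Vil. Ptprc changed less (means: WT 23.9, RIPK3-KO 22.54, Vil 19.59 CPM). Lyz2, Csf1r and Adgre1 are also counted in the next list, and Cd3e, Cd3d, Cd8a and Cd4 in that of T and cytotoxic cells. The sums of these lists are therefore not independent. The 10 markers of monocytes and macrophages summed to 468 to 485, 498 to 531 and 305 to 325 CPM, with 5 higher and 2 lower in RIPK3-KO and 1 higher and 8 lower in Vil. The 10 markers of T and cytotoxic cells summed to 172.5 to 176, 90.7 to 98.1 and 101 to 104.5 CPM, with 6 lower in RIPK3-KO and 7 in Vil, and none higher. The largest parts of this sum were Gzma (means: WT 89.31, RIPK3-KO 44.53, Vil 49.67 CPM) and Gzmb (43.65, 22.2 and 25.51 CPM). Cd3g (7.95, 6.86 and 6.6 CPM) and Cd4 (5.89, 5.53 and 5.08 CPM) changed less. The 4 markers of plasmacytoid dendritic cells, a main source of type I interferon, summed to 3.95 to 4.13, 3.25 to 4.65 and 4.65 to 5.35 CPM, and of 3 tested none passed in RIPK3-KO and 1 was higher in Vil. Exocrine pancreas markers reached 20340 CPM in Vil against at most 2587 in WT and 117 in RIPK3-KO, and adipocyte markers reached 5922 CPM in RIPK3-KO against at most 271 in the other groups. The 11 pancreas markers all fell in RIPK3-KO and rose in Vil, and the 8 adipocyte markers rose in both. The sum of 5 smooth muscle markers was 1136 to 1191 CPM in WT, 2750 to 3076 in RIPK3-KO and 2351 to 2487 in Vil. The 5 endothelial markers summed to 82.2 to 89.1 CPM in WT, 114 to 128 in RIPK3-KO and 97.6 to 110.5 in Vil. All 5 muscle markers rose in both deletion groups, and 4 and 3 endothelial ones. Xist was at 276 CPM in RIPK3-KO and 8.46 in WT, so the sex of the tissue differed with that genotype. None of these markers in the table was at 0 in every library, and their part in the changes of the interferon-stimulated genes was not tested.

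Relative to WT, more members were lower than higher in both deletion groups, by small folds except in Ifit2 and Ifit3. With upper-quartile scaling this did not hold in RIPK3-KO, where 11 were higher and 11 lower, and without Vil replicate 2 only 3 were higher in Vil. In RIPK3-KO 6 of 30 members rose and 13 (43.3%) fell, while over all 16539 genes tested 27.3% rose and 28.1% fell. In Vil 6 of 30 rose and 15 fell, against 27.2% and 28.4% of all genes. The total called, 19 and 21 of 30, stood beside 55.4% and 55.6% of all genes. The median fitted log2 fold change of the members was -0.06 in RIPK3-KO and -0.18 in Vil, where the medians of all genes were 0.01 and 0.02. Both comparisons share the WT libraries. In bulk RNA, fewer cells of a type and less RNA per cell cannot be told apart.

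The changes of most members were small for this data set. The median size of the fold among members was 1.19 in RIPK3-KO and 1.20 in Vil, where over all genes it was 1.30 and 1.31. Genes at lower levels than any member were among all genes tested, and levels were not matched. Of the 30, only Ifit3 rose by at least 2-fold in RIPK3-KO and none did in Vil, and only Ifit2 fell by at least 2-fold in either group. Over all genes, 10.2% rose and 4.78% fell by that much in RIPK3-KO, and 9.05% and 5.6% did in Vil. Among the other 28 members the most altered was Parp9 in RIPK3-KO, at 1.553-fold, and Usp18 in Vil, at 1.93-fold.

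Libraries of a group lay close together for nearly every member. Where a gene's libraries are given singly, they are in the order of replicates 1, 2 and 3. The coefficient of variation over the 3 libraries had a median of 3.07% in WT, 4.52% in RIPK3-KO and 5.88% in Vil. Its highest values were 10.9% for Mx1 in WT, 14.5% for Herc6 in RIPK3-KO and 14.1% for Rsad2 in Vil. The libraries of RIPK3-KO and WT did not overlap in 22 members, 10 higher and 12 lower, beside 31.6% and 31.9% of all genes. Those of Vil and WT did not overlap in 20, 5 higher and 15 lower, beside 30% and 31.4% of all genes.

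**Figure D1:**
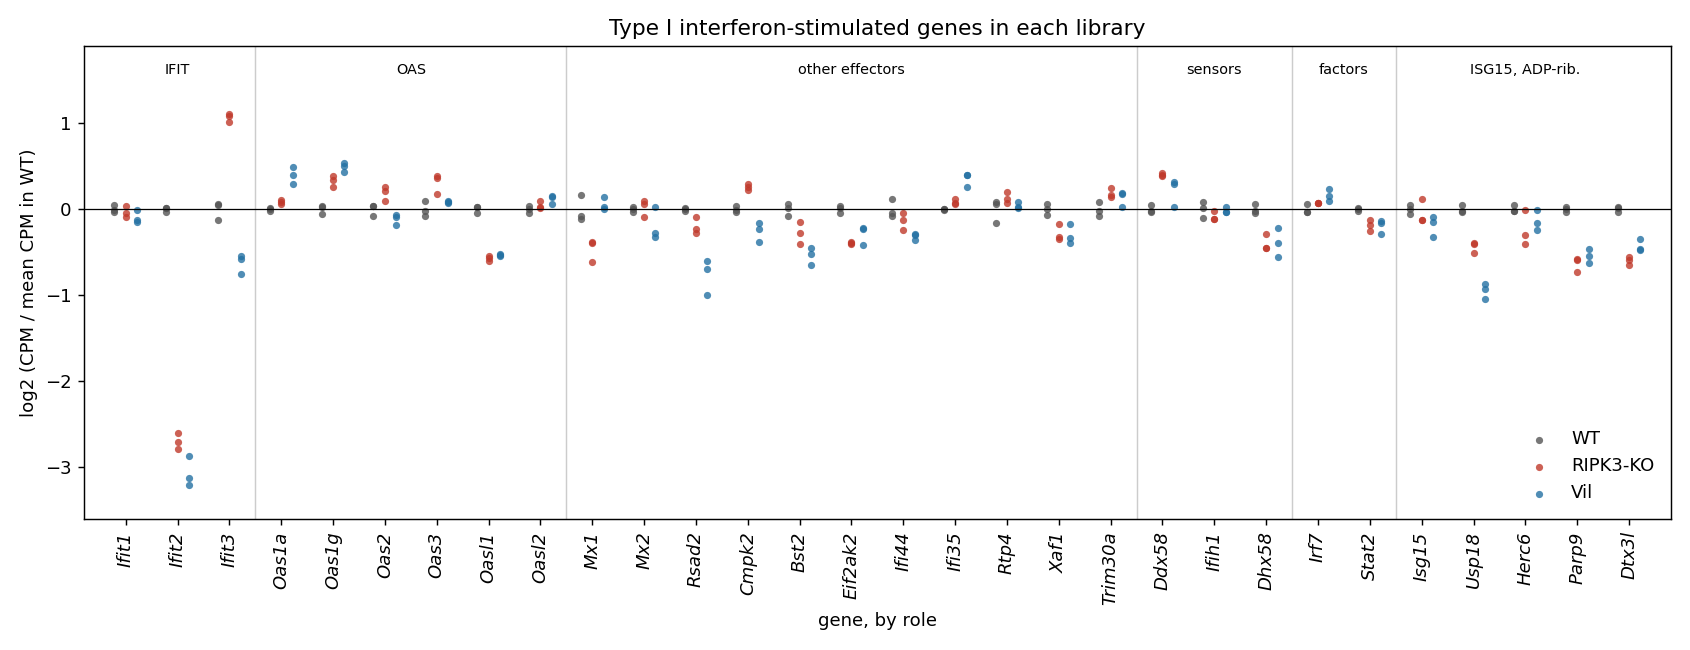
Level of the 30 genes in each of the 9 libraries, as log2 of CPM over the mean WT CPM (points, 3 per group), ordered by role along the horizontal axis. Ifit2 lies far below 0 in RIPK3-KO and Vil, Ifit3 lies above 0 in RIPK3-KO and below it in Vil, and the points of the other members lie nearer to 0 than those of Ifit2.

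Transcript levels per length, from the authors' TPM, order the members within WT. Isg15, the ubiquitin-like modifier, was the most abundant at 333.1 ± 10.1 TPM (SD, n = 3). Bst2 followed at 231.6 ± 9.15, Oasl1 at 219.7 ± 3.99 and Ifi35 at 204.2 ± 1.52. Irf7 at 121.5 ± 3.98 and Oasl2 at 120.5 ± 3.96 differed by less than their spread. The lowest were Mx1 at 6.42 ± 0.679 and Mx2 at 4.43 ± 0.116. The 5 most abundant held 49.1% of the summed TPM of the members in WT. Ifit2 stood at rank 12 of 30 in WT, 26 in RIPK3-KO and 27 in Vil, and Ifit3 at rank 17, 9 and 19.

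The ligands themselves were scarcely detected. Of 18 genes for type I interferons, none passed the filter and 6 had no count in any library. Summed over the 18, there were 8 counts in WT (0 to 5 per library), 43 in RIPK3-KO (9 to 17) and 27 in Vil (2 to 19), with no single count above 10. With the filter reduced to at least 1 read, 12 of them entered an edgeR fit of 25463 genes, and none passed in either comparison with WT (lowest adjusted p = 0.165 in RIPK3-KO and 0.15 in Vil, with none under an unadjusted p of 0.05). The type III interferon Ifnl2 had 7, 9 and 0 counts in WT and Ifnl3 had 12, 2 and 3, and both had 0 counts in the other 6 libraries, where 3 counts corresponded to 0.0708 to 0.127 CPM over all libraries for counting error only. Neither passed the filter. With it reduced as above, both were lower in RIPK3-KO (adjusted p = 0.0363 and 0.0311) and neither passed in Vil (0.0595 and 0.0521). Ifng, the type II interferon made by T and NK cells, fell from 3.36 ± 0.306 CPM (SD, n = 3) in WT to 0.459 ± 0.13 in RIPK3-KO and 0.300 ± 0.0828 in Vil (7.26-fold and 11.2-fold, edgeR adjusted p = 1.35e-07 and 3.08e-08). Of the T cell markers, Cd3e and Cd8a fell in both groups and Cd3d in Vil, while Cd3g and Cd4 passed in neither. The cytotoxic genes Gzma, Gzmb, Prf1 and Nkg7 fell in both. Ncr1, of the same list, had only 16, 39 and 21 counts summed in WT, RIPK3-KO and Vil. Its means were 0.177, 0.342 and 0.27 CPM, and it passed in neither. The part of T and cytotoxic cells in the Ifng level was not tested.

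Of the 6 interferon receptor genes, 3 rose and 2 fell in RIPK3-KO, and 1 rose and 2 fell in Vil, with median log2 fold changes of 0.08 and -0.13. Only 1 was higher in RIPK3-KO without WT replicate 2 or RIPK3-KO replicate 2 or 3, and only 1 lower with upper-quartile scaling. Over all genes, 27.3% rose and 28.1% fell in RIPK3-KO, and 27.2% and 28.4% did in Vil. Ifnar1, the type I receptor chain that binds TYK2, averaged 55.2 ± 2.58 CPM in WT, against 42.5 ± 1.7 in RIPK3-KO and 39.8 ± 1.24 in Vil. It fell 1.30-fold and 1.39-fold (edgeR adjusted p = 1.28e-05 and 7.5e-07). Its partner Ifnar2 was at 28.3 ± 1.16, 29.0 ± 2.03 and 25.2 ± 0.742 CPM and passed in neither (adjusted p = 0.704 and 0.0734). Ifngr2, a chain of the interferon gamma receptor, rose 1.26-fold and 1.38-fold (adjusted p = 1.15e-06 and 6.02e-09), and Ifngr1, its other chain, fell 1.11-fold and 1.14-fold (0.00745 and 0.00128).

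Of 9 JAK, STAT and IRF genes that pass on the signal, 2 rose and 3 fell in RIPK3-KO and 1 rose and 6 fell in Vil. Their medians were -0.06 and -0.28. Over all genes, 27.3% rose and 28.1% fell in RIPK3-KO, and 27.2% and 28.4% did in Vil. Irf9, the DNA-binding part of ISGF3, was at 52.0 ± 3.9, 58.2 ± 3.78 and 53.9 ± 1.38 CPM. Its rise of 1.12-fold in RIPK3-KO had an edgeR adjusted p of 0.0355 with overlapping libraries, and was lost without WT replicate 1 or 2 or RIPK3-KO replicate 2 or 3 (adjusted p = 0.0682 to 0.241), which left 1 gene of this list higher, and in Vil it did not pass (0.519). Irf8, a factor of myeloid cells also induced by interferon gamma, fell 1.98-fold and 1.93-fold (6.81e-16 and 2.41e-15). Irf3, which switches on the interferon beta gene after phosphorylation, rose 1.23-fold and 1.49-fold (0.0003 and 4.14e-08).

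Stat2 and Irf7 are the transcription factors among the members. Stat2, a subunit of ISGF3, was at 123.9, 126.5 and 127.2 CPM in WT, 105.8, 115.5 and 110.7 in RIPK3-KO and 103.2, 114.1 and 113 in Vil. Every WT library lay above every library of the other groups, and Stat2 fell 1.14-fold in each (edgeR adjusted p = 0.00347 and 0.00286). Irf7, an amplifier of type I interferon production, was at 155.1, 146.3 and 145.6 CPM in WT, 156.8, 156.7 and 156.5 in RIPK3-KO and 165.4, 176 and 159.2 in Vil. The Vil libraries lay above all WT libraries, and Irf7 rose 1.12-fold in Vil (adjusted p = 0.00655, or 0.0562 without Vil replicate 2). In RIPK3-KO it did not pass (adjusted p = 0.217). Irf7 overlaps Phrf1 on the opposite strand, and whether the counting used strand is not stated, so its counts are uncertain.

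The IFIT genes encode proteins that bind viral RNA and block its translation, and they lie together on chromosome 19. Ifit2 (ENSMUSG00000045932, mm10 chromosome 19, 34550694 to 34576419, plus strand) was at 121.1, 120.5 and 117.5 CPM in WT. In RIPK3-KO it measured 18.3, 17.3 and 19.76 CPM and 12.94, 16.4 and 13.74 in Vil. No library of either deletion group came near the WT level. Ifit2 fell 6.48-fold in RIPK3-KO (log2 fold change -2.70, SE 0.0732, edgeR adjusted p = 1.28e-20) and 8.32-fold in Vil (-3.06, SE 0.0777, 3.58e-21). Between the deletion groups it was 1.28-fold higher in RIPK3-KO (adjusted p = 0.00113).

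Ifit3 (ENSMUSG00000074896, chromosome 19, 34583531 to 34588731), whose protein binds IFIT1 and stabilises it in human cells, moved in opposite directions. It was at 25.58, 22.35 and 25.39 CPM in WT, 51.98, 52.74 and 49.56 in RIPK3-KO and 16.41, 16.78 and 14.53 in Vil. The 3 groups did not overlap. Ifit3 rose 2.10-fold in RIPK3-KO (log2 fold change 1.07, SE 0.0759, adjusted p = 6.74e-12) and fell 1.54-fold in Vil (-0.62, SE 0.0824, 5.74e-07), a difference of 3.23-fold between them (1.69, SE 0.0799, 3.78e-15). Of its 100-base stretches of transcript, 31.7% also occur in another gene, Ifit3b, so reads could be split between the pair.

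Ifit1 (ENSMUSG00000034459, chromosome 19, 34640871 to 34650009), which recognises viral RNA by its 5′ end, was at 118.3, 116.2 and 123 CPM in WT, 122.3, 115.9 and 111.5 in RIPK3-KO and 117.9, 109.1 and 107.5 in Vil. The groups overlapped, and it passed in neither comparison (edgeR adjusted p = 0.629 and 0.124), although without Vil replicate 1 it passed in Vil (0.0378). In WT, Ifit1 and Ifit2 had about equal counts, 119.1 ± 3.49 and 119.7 ± 1.93 CPM, and only Ifit2 of the pair passed the test.

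The 6 Ifit genes of this cluster start within 90.2 kb, and the 3 that are not members varied as well. Ifit3b, next to Ifit3 in sequence, averaged 4.868 ± 0.214 CPM in WT, against 10.16 ± 0.822 in RIPK3-KO and 3.987 ± 0.386 in Vil, rising 2.09-fold in RIPK3-KO (edgeR adjusted p = 7.04e-07) without passing in Vil (0.115). Ifit1bl1, an Ifit1-like gene on the opposite strand, was at 148.6 ± 2.54, 86.3 ± 3.84 and 238.3 ± 14 CPM. It fell 1.72-fold in RIPK3-KO (1.63e-12) and rose 1.604-fold in Vil (2.35e-11), the reverse of Ifit3. Ifit1bl2, another Ifit1-like gene, was at 104.8 ± 2.13, 119.9 ± 1.42 and 149.8 ± 10.4 CPM, rising 1.15-fold and 1.43-fold (0.00247 and 6.23e-09). The genes of the cluster thus showed several different orders of the 3 groups.

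**Figure D2:**
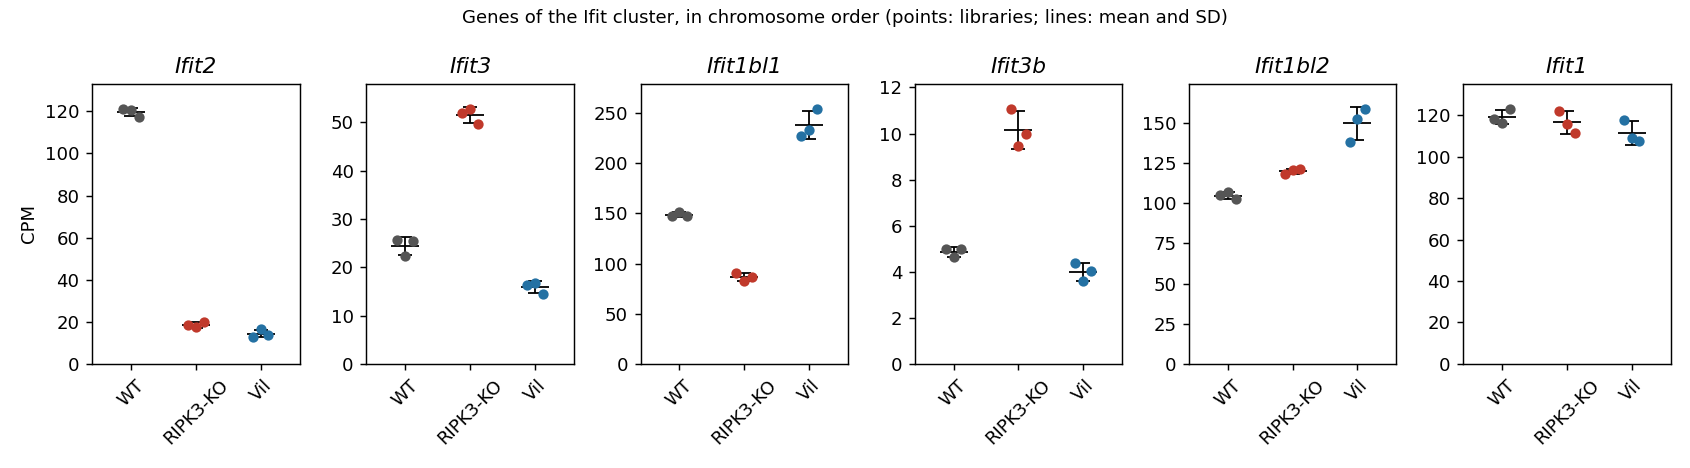
CPM of the 6 Ifit genes of chromosome 19 in each library, in chromosome order, with the mean and SD of each group (n = 3) as lines. Ifit2 falls in both deletion groups, Ifit3 and Ifit3b are highest in RIPK3-KO, Ifit1bl1 and Ifit1bl2 are highest in Vil, and the groups of Ifit1 overlap.

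The OAS genes encode enzymes that make 2-5A, the activator of RNase L, or proteins related to them. Of the 6, 2 rose and 1 fell in RIPK3-KO, and 3 rose and 1 fell in Vil, with median log2 fold changes of 0.14 and 0.10. Beside these stand rises and falls of 27.3% and 28.1% of all genes in RIPK3-KO and 27.2% and 28.4% in Vil, and counts among 6 genes lie near such shares. Oasl1, an OAS-like protein known in mice to hold back translation of Irf7, was the member of the family that fell. It was at 236.5, 225.2 and 236.2 CPM in WT, 153.3, 159.2 and 157.3 in RIPK3-KO and 162.4, 159.7 and 160.6 in Vil. The libraries of both deletion groups lay well below all WT libraries, and Oasl1 fell 1.49-fold and 1.45-fold (edgeR adjusted p = 5.26e-11 and 2.84e-10).

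Oas1g and Oas1a, neighbouring OAS enzymes on chromosome 5, were higher in Vil than in WT. Oas1g was at 49.17, 45.94 and 48.66 CPM in WT, 62.53, 60.71 and 57.38 in RIPK3-KO and 69.66, 64.77 and 68.13 in Vil, rising 1.26-fold and 1.41-fold (edgeR adjusted p = 4.04e-05 and 1.36e-07). Oas1a was at 77.87, 78.81 and 76.68 CPM in WT, 83.47, 81.31 and 82.5 in RIPK3-KO and 109.7, 102.5 and 95.32 in Vil. It rose 1.32-fold in Vil (1.03e-06), and its 1.06-fold difference in RIPK3-KO did not pass (0.2) although the libraries did not overlap. The printed upstream windows of the pair carry the same capital letters, and 40.9% of the 100-base stretches of Oas1a occur in another gene, Oas1g, so their counts are uncertain as separate values.

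Oas3, the largest OAS enzyme, was at 71.53, 66.18 and 63.5 CPM in WT and 75.69, 86.27 and 87.48 in RIPK3-KO, where it rose 1.24-fold (edgeR adjusted p = 0.000117), and at 70.8, 71.49 and 71.32 in Vil, where it did not pass (0.249). Oasl2, an OAS-like enzyme, averaged 189.8 ± 5.79, 195.6 ± 5.63 and 206.6 ± 7.02 CPM in the 3 groups and rose 1.09-fold in Vil alone (0.0303), a call lost without WT replicate 2 or 3, without Vil replicate 2 or 3 and with no filter (0.08 to 0.162). Oas2 averaged 14.94 ± 0.688, 17.04 ± 0.988 and 13.81 ± 0.617 CPM and passed in neither (0.0962 and 0.344).

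The other 11 effectors include dynamin-like GTPases and membrane proteins that act on virus release. In RIPK3-KO 2 of them rose and 5 fell, and in Vil 1 rose and 6 fell, with median log2 fold changes of -0.13 and -0.25. The shares of all genes that rose and fell were 27.3% and 28.1% of all genes in RIPK3-KO and 27.2% and 28.4% in Vil. Rsad2 (viperin, which makes a chain-terminating nucleotide) was at 37.66, 37.22 and 38.08 CPM in WT, 35.29, 31.06 and 32.18 in RIPK3-KO and 24.87, 23.16 and 18.8 in Vil. All Vil libraries lay under those of the other groups. It fell 1.69-fold in Vil (SE 0.0869 on the log2 scale, edgeR adjusted p = 5.25e-08). The 1.15-fold fall in RIPK3-KO (0.0462) rests on its libraries: it was lost without any 1 of the WT libraries or RIPK3-KO replicate 2 or 3, and with upper-quartile scaling, the filter at 1 CPM or DESeq2, with a range of 0.0156 to 0.169 over the alternatives.

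Cmpk2, a mitochondrial nucleotide kinase, lies beside Rsad2 on chromosome 12 and moved in opposite directions in the deletion groups. It was at 40.15, 38.69 and 38.11 CPM in WT, 46.73, 47.96 and 45.69 in RIPK3-KO and 29.86, 34.98 and 33.33 in Vil. No groups overlapped. It rose 1.20-fold in RIPK3-KO and fell 1.19-fold in Vil (edgeR adjusted p = 0.00175 and 0.00343), and the groups differed by 1.43-fold (1.49e-06).

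Bst2 (tetherin, which holds budding virus at the cell surface) was at 85.75, 80.46 and 88.57 CPM in WT, 76.85, 63.99 and 70.15 in RIPK3-KO and 62.13, 59.13 and 54.28 in Vil. Every WT library was above every other library. It fell 1.21-fold and 1.45-fold (edgeR adjusted p = 0.001 and 2.14e-07). The sum of the leukocyte markers, made up mostly of Lyz2, was also lowest in Vil, as given above. The sum for T and cytotoxic cells, whose largest parts were Gzma and Gzmb, was lowest in RIPK3-KO. The sum for plasmacytoid dendritic cells was higher in Vil than in WT, although Pacsin1, its largest part, was not. The part of these cells in the level of Bst2 was not tested.

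Mx1, a GTPase that blocks influenza virus in mice with a functional allele, was at 10.7, 9.013 and 8.809 CPM in WT, 7.268, 6.206 and 7.272 in RIPK3-KO and 9.643, 9.499 and 10.48 in Vil. The RIPK3-KO libraries were the lowest. Mx1 fell 1.38-fold there (edgeR adjusted p = 0.00415) and did not pass in Vil (0.747). Its relative Mx2 was at 6.499 ± 0.118, 6.601 ± 0.439 and 5.739 ± 0.782 CPM and did not pass (0.908 and 0.332).

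Other effectors moved by small folds. Eif2ak2 (PKR, the RNA-activated kinase that halts translation) averaged 84.91 ± 2.53 CPM in WT, against 64.76 ± 0.613 in RIPK3-KO and 69.71 ± 5.35 in Vil, falling 1.31-fold and 1.22-fold (edgeR adjusted p = 2.66e-06 and 0.000195). Xaf1, which promotes apoptosis, averaged 34.8 ± 1.45, 28.68 ± 1.87 and 28.36 ± 2.33 CPM and fell 1.21-fold and 1.23-fold (0.00317 and 0.00236). Ifi44 averaged 31.39 ± 2.42, 28.61 ± 1.86 and 25.21 ± 0.711 CPM and fell 1.24-fold in Vil (0.00159).

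Ifi35, which binds NMI, was the only 1 of these 11 effectors that rose in Vil. It went from 143.2 ± 0.58 to 183 ± 10.6 CPM, or 1.28-fold (edgeR adjusted p = 1.2e-06), and was at 151.8 ± 3.61 CPM in RIPK3-KO (0.152). Trim30a, a RING-type ubiquitin ligase, averaged 26.12 ± 1.51 CPM in WT and 29.69 ± 1.16 in RIPK3-KO. This was 1.14-fold higher (0.0419), a call lost without WT replicate 1 or 3, without RIPK3-KO replicate 2 or 3 and with no filter (0.0679 to 0.175). Rtp4, a receptor chaperone, averaged 34.11 ± 3.11, 37.36 ± 1.77 and 35.13 ± 0.834 CPM and did not pass (0.13 and 0.644).

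The RNA sensors went in different directions. Ddx58 (RIG-I, the sensor of short 5′ triphosphate RNA) was at 48.51, 45.94 and 46.26 CPM in WT, 61.86, 61.4 and 62.6 in RIPK3-KO and 47.62, 57.45 and 58.34 in Vil. It rose 1.32-fold in RIPK3-KO (edgeR adjusted p = 1.59e-05). In Vil, replicate 1 lay within the WT range, and the 1.16-fold rise (0.00921) was lost without Vil replicate 2 or 3 (0.0537 and 0.0597). Dhx58 (LGP2, a RIG-I-like regulator) averaged 23.21 ± 0.946, 17.67 ± 1.1 and 17.81 ± 2.03 CPM and fell 1.31-fold and 1.30-fold (0.000891 and 0.00137). Ifih1 (MDA5, the sensor of long double-stranded RNA) averaged 87.97 ± 5.64, 83.17 ± 2.9 and 87.16 ± 1.86 CPM and did not pass (0.223 and 0.863).

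Of the 5 genes of ISG15 conjugation and ADP-ribosylation, 4 fell in each deletion group and none rose, where 28.1% and 28.4% of all genes fell. The median log2 fold change was -0.43 in both. Isg15, which is attached to target proteins, was at 106.2, 98.46 and 102.2 CPM in WT, 111.3, 93.91 and 93.76 in RIPK3-KO and 96.09, 92.43 and 81.65 in Vil. The 1.14-fold fall in Vil (edgeR adjusted p = 0.0248) ended without WT replicate 1 or 3 or Vil replicate 3 and with upper-quartile scaling or the filter at 1 CPM (0.0508 to 0.159), and it did not pass in RIPK3-KO (0.655). Herc6, the mouse ISG15 ligase, averaged 51.52 ± 1.51 CPM in WT and 43.92 ± 6.38 in RIPK3-KO. Its 1.17-fold fall (0.0226) came with overlapping libraries and was lost without WT replicate 1 or RIPK3-KO replicate 1 or 2 and with upper-quartile scaling (0.0854 to 0.118). In Vil it averaged 46.87 ± 3.9 CPM and did not pass (0.178).

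Usp18, the protease that removes ISG15 and also blocks signalling at IFNAR2, fell in a graded way. It was at 97.08, 92.31 and 91.83 CPM in WT, 71.49, 66.05 and 70.6 in RIPK3-KO and 51.34, 49.17 and 45.6 in Vil. The 3 groups were fully separated. The fold was 1.35 in RIPK3-KO (log2 fold change -0.43, SE 0.0569, edgeR adjusted p = 4.47e-07) and 1.93 in Vil (-0.95, SE 0.0591, 6.91e-13), and the groups differed by 1.43-fold (1.51e-07).

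Parp9 and Dtx3l encode partners, an ADP-ribosyltransferase-like protein and a ubiquitin ligase, that act together. Parp9 was at 208.6, 205.3 and 199.9 CPM in WT, 123, 135.5 and 136.8 in RIPK3-KO and 133, 140.3 and 148.2 in Vil. Dtx3l was at 205.4, 212.3 and 214.1 CPM in WT, 134.1, 139.5 and 142.9 in RIPK3-KO and 152.4, 151.4 and 165.7 in Vil. Both were lower in every library of the deletion groups than in WT. Parp9 fell 1.553-fold and 1.46-fold (edgeR adjusted p = 1.12e-10 and 2.93e-09) and Dtx3l 1.52-fold and 1.34-fold (9.31e-11 and 5.33e-08). The genes start head to head on chromosome 16 and overlap by 682 bases on opposite strands, so part of their counts could be shared if strand was not used.

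**Figure D3:**
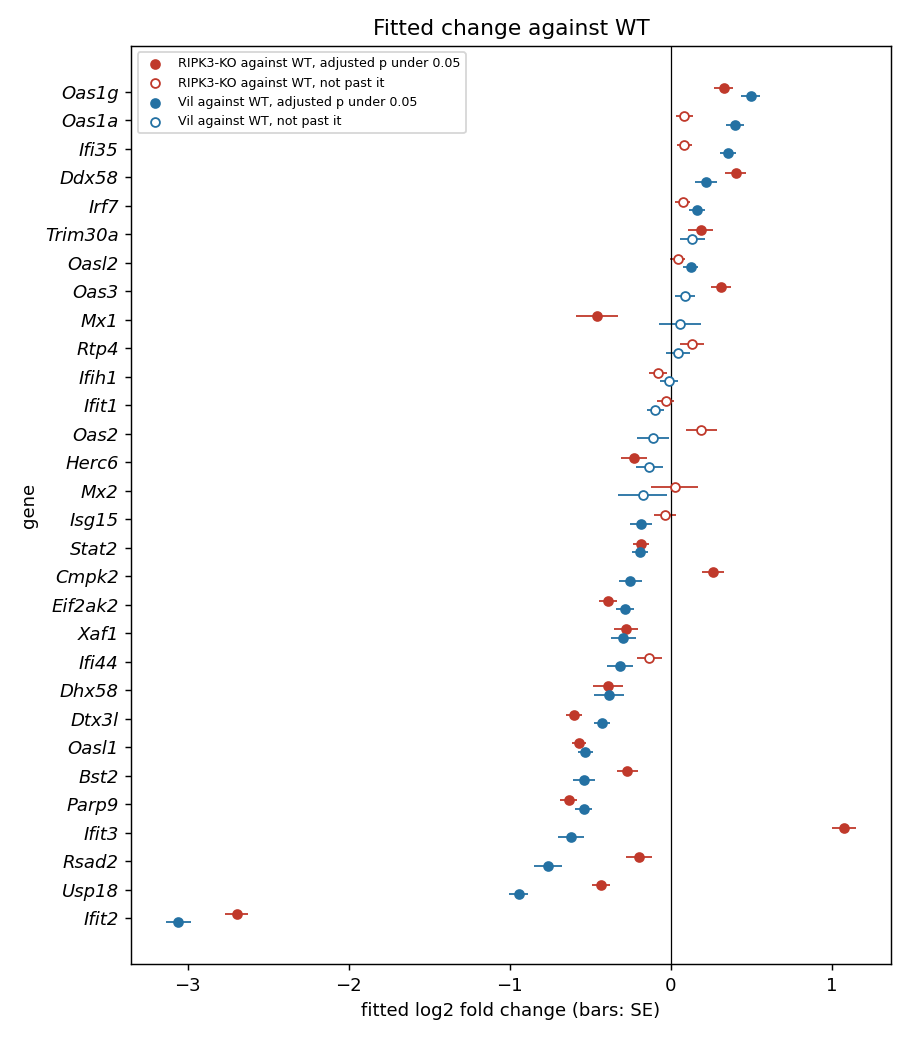
Fitted log2 fold change against WT with its SE (bars) for the 30 genes in RIPK3-KO and Vil, filled where the adjusted p was under 0.05. Ifit2 stands apart at -2.70 and -3.06, Ifit3 and Cmpk2 have filled points on opposite sides of 0, and Oas1g is the most raised of the 30 in Vil.

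RIPK3-KO and Vil were compared directly to ask where whole-body and epithelial deletion differ. Relative to Vil, 9 of 30 members were higher in RIPK3-KO and 5 lower (16.7%), against 16.6% and 15.1% of all genes. Only Ifit3 was at least 2-fold higher and none at least 2-fold lower, where 4.27% and 2.64% of all genes were. The libraries did not overlap in 17 members, 10 higher and 7 lower, beside 21.5% and 19.2% of all genes. The median log2 difference of the members was 0.03, where that of all genes was 0.01. After Ifit3, the members most raised in RIPK3-KO over Vil were Rsad2 (1.48-fold higher in RIPK3-KO, edgeR adjusted p = 1.26e-05), Cmpk2 and Usp18. Those lower in RIPK3-KO than in Vil were Mx1 (1.43-fold, 0.00356), Oas1a (1.24-fold, 6.01e-05), Ifi35 (1.21-fold, 0.000108), Dtx3l (1.13-fold, 0.00819) and Oas1g (1.12-fold, 0.0328). The call of Oas1g was lost without Vil replicate 1 or 3, without RIPK3-KO replicate 2 or 3, with upper-quartile scaling, with no filter and with only these groups fitted (0.057 to 0.168). The calls of Ddx58 and Oas2, 1.14-fold and 1.23-fold higher in RIPK3-KO (0.0382 and 0.0187), were also lost when single libraries were left out, Vil replicate 1 and RIPK3-KO replicates 2 and 3 for both (up to 0.279 and 0.0837). For Ddx58 this held also without WT replicate 2 or 3 or RIPK3-KO replicate 1, with DESeq2 (0.0554) and with only these groups fitted (0.0682). Sex, leukocyte, pancreas and adipocyte markers differed between the same groups, and every RIPK3-KO library had more counts in total than every Vil library. None of these differences can be told apart from the genotype here.

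Among other interferon pathway genes, the list of sensor adaptors held rises and falls. Of 13, 3 rose and 5 fell in RIPK3-KO, and 3 rose and 8 fell in Vil, with medians of -0.12 and -0.33. Without Vil replicate 1, 5 fell in Vil, with Zbp1, Mb21d1 and Trim25 lost. Over all genes, 27.3% rose and 28.1% fell in RIPK3-KO, and 27.2% and 28.4% did in Vil. Mavs, the mitochondrial adaptor of RIG-I and MDA5, rose 1.496-fold and 1.67-fold (edgeR adjusted p = 1.24e-08 and 2.03e-10). Tmem173 (STING, the adaptor for cytosolic DNA) fell from 17.1 CPM in WT to 7.65 in RIPK3-KO and 7.36 in Vil, or 2.24-fold and 2.32-fold (7.02e-09 and 6.23e-09). Myd88, the Toll-like receptor adaptor, fell 1.68-fold and 1.35-fold (4.4e-10 and 5.53e-06). Among 5 feedback inhibitors, 1 rose and 2 fell in RIPK3-KO and 2 rose and 2 fell in Vil, with medians of -0.12 and 0.11. The count of 2 higher in Vil became 1, with Pias1 lost, with no filter or without any 1 of the Vil libraries. The same held without WT replicate 1 or 3 or RIPK3-KO replicate 2 or 3. Beside the counts of this list stand the same shares of all genes. Socs1, which blocks JAK kinases and stands also in the interferon gamma list, fell from 40.4 CPM in WT to 8.28 and 9.32 (4.88-fold and 4.34-fold, 1.47e-16 and 1.63e-15), and Socs3 fell 3.15-fold and 1.69-fold (2.65e-18 and 2.08e-11).

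A list of 41 other interferon-induced genes had 10 higher and 20 lower in RIPK3-KO and 9 higher and 27 lower in Vil, with medians of -0.18 and -0.33. The shares lower were 48.8% and 65.9%, and the share higher in RIPK3-KO was 24.4%, beside rises and falls of 27.3% and 28.1% of all genes in RIPK3-KO and 27.2% and 28.4% in Vil. Ifi27, an interferon-inducible membrane protein gene, averaged 19.9 CPM in WT, against 93.3 in RIPK3-KO and 50.9 in Vil, rising 4.67-fold and 2.55-fold (edgeR adjusted p = 5.09e-19 and 4.05e-14). Its relative Ifi27l2a was at 27.8, 72.1 and 18.4 CPM, rising 2.59-fold in RIPK3-KO (5.15e-13) and falling 1.51-fold in Vil (4.38e-06). Gbp7, a guanylate-binding GTPase gene, fell 2.08-fold and 3.32-fold (2.6e-12 and 4.59e-16).

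Of 26 targets of interferon gamma, 2 rose and 23 fell in RIPK3-KO and 3 rose and 23 fell in Vil, with medians of -0.65 and -1.59. The share that fell was 88.5% in each, beside 28.1% and 28.4% of all genes. Cxcl9, a chemokine for T cells, fell 4.82-fold and 10.8-fold (edgeR adjusted p = 1.95e-20 and 3.87e-23). H2-Ab1, which encodes an MHC class II chain, rose 1.19-fold and 1.35-fold (5.35e-05 and 2.51e-08). The type I interferon-stimulated genes, by comparison, had medians of -0.06 and -0.18. Whether the lists differ from each other was not tested, and T and cytotoxic cell markers and Ifng were lower in the same groups.

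**Figure D4:**
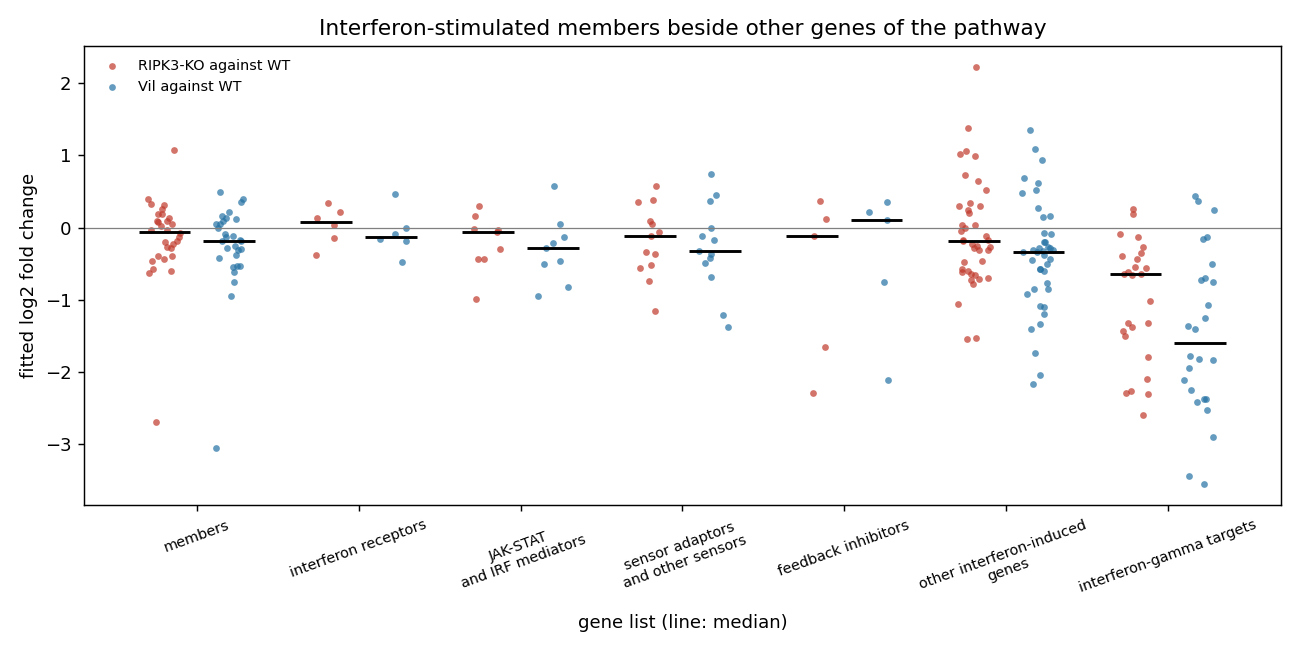
Fitted log2 fold change against WT of each tested gene (points) and the median of each list (lines), for RIPK3-KO and Vil, in the 30 interferon-stimulated genes and 6 lists of the same pathway. Medians of the 30 genes lie at -0.06 and -0.18, and those of the interferon gamma targets at -0.65 and -1.59.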

How the data were processed

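RNA-seq of 9 small intestine libraries in 3 groups of 3 was analysed from the deposited table. Per the submitters' processing notes, Trimmomatic, STAR, HTSeq and DESeq2 were used and the build was mm10, their roles and versions being not given in the sources used here. Ribosomal RNA removal and directional kits were used per the labels' protocols, but the use of strand by the counter is not stated. The deposited counts are whole numbers per gene, not normalized. The deposited TPM were used only to order genes within a group. The 30 members and all lists were chosen with earlier results of these data known. The genes described by library follow a rule (the 6 largest called changes in each comparison with WT, with Isg15, Irf7, Stat2 and Usp18); others were added for their role, with their values known.

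Of 48708 genes, 23245 had no count in any of the libraries. Besides these genes, 1 line was left out. Totals were 25375499 to 41038990 counts per library, with 36618034 to 41038990 in RIPK3-KO and 25375499 to 32225648 in WT and Vil. Tests on counts used edgeR 4.0.16 (R 4.3.3): filterByExpr by group (16539 genes), TMM scaling (factors 0.932 to 1.04), then the quasi-likelihood fit with the robust option over the 9 libraries, with a mean for each group, leaving 6 residual degrees of freedom and a common coefficient of variation of 0.0812. Tests were 2-sided, with Benjamini-Hochberg adjustment over all genes tested and a threshold of 0.05. A gene past it is said to have risen or fallen. CPM divide counts by the scaled library size. Adjusted p-values in parentheses are in the order RIPK3-KO, then Vil. Replicates of a group differed by more than sampling noise (chi-square per degree of freedom 3.54 to 11.7). Replicate numbers did not pair libraries, since residuals of libraries with equal numbers correlated between -0.04 and 0.0818.

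Alternatives were RLE and upper-quartile scaling, TMM factors computed without pancreas, adipocyte and sex-linked genes, no filter except at least 1 read, a minimum of 1 CPM in at least 3 libraries, models restricted to the pair of groups compared, DESeq2 1.42.0, limma-voom (limma 3.58.1) and the replicate number as a block, as well as leaving out each library. Sequences came from RefSeq on GRCm38.p6. The separate values of 1 gene of the signalling lists are not reported here.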

Additional observations from a re-analysis of the deposited data

Results flagged for a closer look

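For 5 genes the change against WT differed between the deletion groups, with opposite signs that both passed, and the direct test of RIPK3-KO against Vil passed as well (edgeR). On the log2 scale, RIPK3-KO minus Vil was 1.69 for Ifit3, 0.51 for Cmpk2, 1.97 for Ifi27l2a, -1.47 for Ifit1bl1 and -0.37 for Cd74. Ifit3, Cmpk2 and Ifi27l2a rose in RIPK3-KO and fell in Vil, while Ifit1bl1 fell in RIPK3-KO and rose in Vil. Cd74, the class II invariant chain, was at 2065 ± 46.5 CPM (SD, n = 3) in WT, 1884 ± 73.9 in RIPK3-KO and 2443 ± 172 in Vil. Its fall in RIPK3-KO was lost with upper-quartile scaling (adjusted p = 0.209) and without WT replicate 1 or 3 or RIPK3-KO replicate 3 (0.0592 to 0.124).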

How the results depend on the processing

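No fitted direction of a called member changed under the 18 alternatives in any of the 3 comparisons. With upper-quartile scaling, 11 members were higher and 11 lower in RIPK3-KO than in WT, against 6 and 13, with Oas2, Oas1a, Irf7, Ifi35 and Rtp4 gained, and the median of all genes moved to 0.07 in RIPK3-KO and 0.06 in Vil. Leaving out single libraries gave 5 to 6 members higher and 11 to 13 lower in RIPK3-KO, and 3 to 6 higher and 14 to 16 lower in Vil. The count of 3 came without Vil replicate 2. Between RIPK3-KO and Vil it gave 7 to 9 higher and 4 to 6 lower. With the replicate number as a block, 6 members were higher and 13 lower in RIPK3-KO, 6 and 15 in Vil, and 10 and 5 between the deletion groups. The numbers do not pair the libraries: 2 of 9 matched best with their own number. Of the calls, 5 of 6 higher and 11 of 13 lower in RIPK3-KO, and 3 of 6 higher and 14 of 15 lower in Vil, held in every alternative run. The pathway lists were rerun under the same alternatives, which was decided after seeing the data, and none of their called genes changed direction. Summed over the 3 comparisons and all alternatives, 47 list counts moved by more than 1.5 times, and calls of single genes were lost 133 times and gained 26 times. The calls of Mb21d1 (cGAS) and Trim25 in Vil were lost under 13 and 6 of the 18 alternatives. Counts of the interferon ligands are few, while the lowest library of a member was at 5.202 CPM (Mx2 in Vil).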
